A study of Mus musculus with 2 samples.

Results

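The colony-stimulating factors, leukaemia inhibitory factor, oncostatin M and the receptors for these cytokines were examined in mouse peritoneal macrophages. The 10 genes were Csf1, Csf2, Csf3, Lif, Osm, Csf1r, Csf2ra, Csf2rb, Csf3r and Il6st, of 18093 genes with a value in the whole series. Every probe set whose platform annotation gave exactly 1 of these symbols was taken, which gave 21 probe sets. The family was selected on gene names with the log2 ratios of these same arrays already known, so its values are a description and carry no test.

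The macrophages were taken from C57BL/6J mice 3 days after thioglycolate, which recruits such cells to the peritoneum, had been injected. One culture received LPS+CPN+GGOH and the other LPS+CPN, and each was measured on 1 array. LPS is lipopolysaccharide, the bacterial ligand of Toll-like receptor 4, and GGOH is geranylgeraniol, an isoprenoid alcohol. CPN is given by this abbreviation alone, and both cultures received it together with LPS. No culture without LPS or without CPN was part of the comparison, and dose, duration and number of animals were not stated in the labels.

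Colony-stimulating factors are secreted proteins that keep myeloid cells alive and direct their growth and maturation. Csf1 encodes M-CSF, which binds the receptor tyrosine kinase CSF1R on macrophages. Csf2 encodes GM-CSF, which binds a receptor made of the CSF2RA chain and the signalling chain CSF2RB. Csf3 encodes G-CSF, whose receptor CSF3R is best known from neutrophils. Lif and Osm encode cytokines of the interleukin-6 family, and Il6st encodes gp130, the signalling chain that the receptors of this family share. Stimulated macrophages, fibroblasts and mesothelial cells are all known sources of several of these ligands. In RefSeq's gene table of assembly GRCm38.p6, Osm and Lif are neighbouring protein-coding genes, as are Csf2rb and its close paralogue Csf2rb2.

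Promoter windows in RefSeq's table, from 250 bases before to 50 bases after a gene's start, were found for 6 of the 10 genes. Csf3, Osm, Csf1r and Csf2rb had no window there. The windows of Csf1 and Lif are shown because both ligand genes had higher signals with GGOH. That of Csf3r is shown because it held the same motif while the gene's signals differed little between the arrays. All are of build GRCm38.p6 and run 5′ to 3′ on the gene's strand. They lie at chr3:107760420-107760719 on the minus strand (Csf1), chr11:4257318-4257617 on the plus strand (Lif) and chr4:126024409-126024708 on the plus strand (Csf3r). Capitals mark matches to a 10-letter NF-kB consensus in all 3 windows and, in Lif, also the AP-1 motif TGANTCA, which comes first. The NF-kB consensus starts with GGG and ends with CC. In Csf1 and Csf3r it matched on the opposite strand, so the capitals there show its reverse complement. In Lif it matched on both strands.
Csf1: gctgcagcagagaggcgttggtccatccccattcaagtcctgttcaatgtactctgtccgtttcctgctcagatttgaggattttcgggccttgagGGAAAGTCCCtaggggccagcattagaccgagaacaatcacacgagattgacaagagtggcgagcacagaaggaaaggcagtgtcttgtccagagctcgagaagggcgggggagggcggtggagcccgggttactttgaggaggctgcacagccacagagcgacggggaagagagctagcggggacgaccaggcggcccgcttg
Lif: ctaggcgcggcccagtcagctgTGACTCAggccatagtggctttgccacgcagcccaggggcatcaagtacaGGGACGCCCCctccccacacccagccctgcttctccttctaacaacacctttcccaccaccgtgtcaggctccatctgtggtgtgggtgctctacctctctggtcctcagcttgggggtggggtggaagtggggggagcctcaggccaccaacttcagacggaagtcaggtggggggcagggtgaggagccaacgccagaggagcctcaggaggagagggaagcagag
Csf3r: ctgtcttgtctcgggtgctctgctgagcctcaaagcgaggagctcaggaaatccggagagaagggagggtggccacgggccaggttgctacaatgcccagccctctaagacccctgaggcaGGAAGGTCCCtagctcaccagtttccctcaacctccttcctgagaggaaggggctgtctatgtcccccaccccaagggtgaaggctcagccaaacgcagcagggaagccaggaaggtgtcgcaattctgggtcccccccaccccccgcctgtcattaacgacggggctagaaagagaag

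The NF-kB consensus occurred on either strand in 3 of the 6 windows, those of Csf1, Csf3r and Lif, and in 8.46% of all 32851 promoter windows in the table. It began 154 bases before the start site in Csf1, 178 in Lif and 129 in Csf3r. The AP-1 motif occurred in the Lif window, 228 bases before the start, and in 7.81% of all windows. The Csf2 window held the TEAD motif GGAATG and the C/EBP motif TTGCNNAA, which occurred in 14.7% and 10.8% of all windows. No window of the 6 held the STAT motif TTCNNNGAA, which 8.30% of all windows held. The motifs did not overlap one another, and a match describes the letters of a window, not binding.

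Values are MAS5 signal intensities on a linear scale. Signals at or below 59.9, the median of all non-control signals of both arrays, were treated as at the floor. A gene or probe set was measured if at least 1 array lay above the floor, and a gene took the ratio of its brightest probe set. With 1 array per condition there is no replicate error. Probe sets of 1 gene differed in their log2 ratios with a pooled SD of 0.45 over 4166 genes, which serves as a scale of error within these arrays.

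The 9 macrophage markers were all above the floor on both arrays, with a median log2 ratio of 0.02 and a range from -0.73 (Mertk) to 1.05 (Itgam). Of the 10 fibroblast markers, 9 were measured and 8 were at least 2-fold higher with GGOH. Their summed signal was 29432 with LPS+CPN+GGOH and 1406 with LPS+CPN. The sums took each gene's brightest probe set and included signals below the floor. For 5 of the 9 measured fibroblast markers the ratio was a bound. The size of the difference depended on the probe set. Log2 ratios, with bounds at the floor, ran from -0.21 to 6.03 for Sparc and from 0.26 to 3.16 for Dcn. Of 9 mesothelial markers, 7 were at least 2-fold higher. Their signals, summed in the same way, were 2543 with LPS+CPN+GGOH and 312 with LPS+CPN. On the LPS+CPN array Krt8 alone of these 9 was above the floor, and Wt1 and Msln were below it there. Neutrophil markers were sparse, with 3 of 8 measured, S100a8 at 2216 with LPS+CPN+GGOH and 4282 with LPS+CPN, and S100a9 below the floor on both. No marker of T cells, B cells or mast cells was above the floor on either array. The ratio of 3' to 5' control signal was 1.24 with LPS+CPN+GGOH and 2.44 with LPS+CPN for Actb. For Gapdh it was 0.956 with LPS+CPN+GGOH and 1.98 with LPS+CPN. In such bulk RNA a different number of cells of a type and a different amount of RNA per cell cannot be told apart.

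Of the 10 genes, 9 were measured, and 3 of the 9 were at least 2-fold higher with GGOH, namely Csf1, Csf3 and Lif. With the floor at the 75th percentile of signals, 1 of the 3, Csf1, was past 2-fold. The share among all 11518 measured genes was 5.50%. None of the 9 was at least 2-fold lower, where the share among all measured genes was 1.66%. All 3 higher genes encode ligands, of which 4 of 5 were measured. By their brightest probe sets, the 5 receptor genes had log2 ratios between -0.50 and 0.41. Over all measured receptor probe sets, ratios ran from -0.70 (Csf2ra) to at least 1.90 (Il6st). The median log2 ratio was 0.19 for the 9 measured genes and -0.01 for all measured genes. Among the 21 probe sets, 18 were measured, 6 were at least 2-fold higher (6.29% of all measured probe sets of 1 gene) and none at least 2-fold lower (1.58%). The division of all genes past 2-fold depended on the scaling, with 76.8% higher as deposited, 61.4% with each array divided by its median and 62.1% after quantile normalization. Dividing each array by its median shifted the overall median log2 ratio by -0.16.

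**Figure D1:**
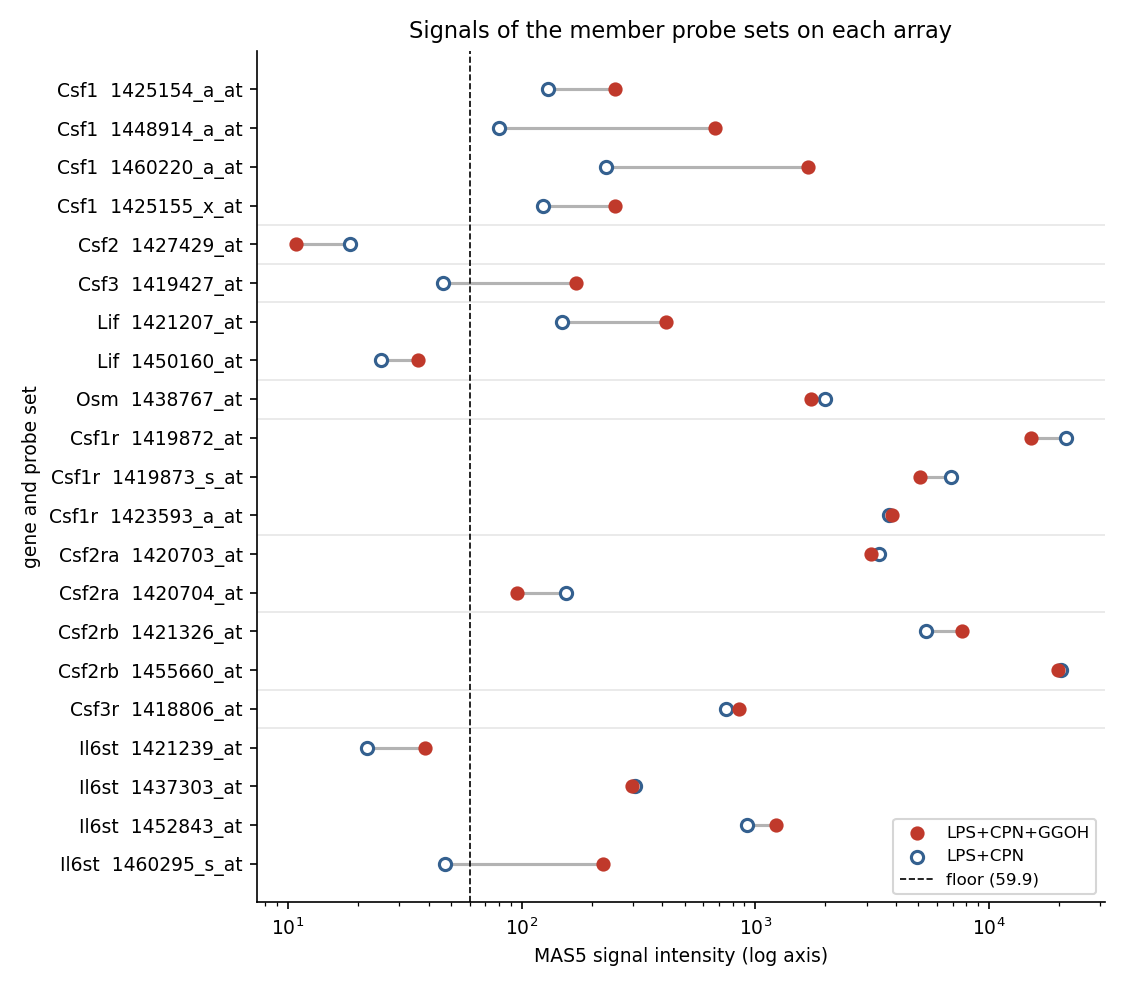
MAS5 signal intensity (log axis) of each of the 21 probe sets on the LPS+CPN+GGOH array (filled red) and the LPS+CPN array (open blue), with the floor of 59.9 as a dashed line. The 4 Csf1 probe sets lie to the right on the LPS+CPN+GGOH array, while the Csf2 probe set lies below the floor on both.

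Csf1 had the highest ratio among the 8 family genes above the floor on both arrays. Its brightest probe set, 1460220_a_at, gave a signal of 1684 with LPS+CPN+GGOH and 229 with LPS+CPN, a 7.35-fold difference and a log2 ratio of 2.88. Of the 11518 measured genes, 76 had a higher ratio, with bounds taken at the floor. A second probe set of the same source sequence, 1448914_a_at, gave 671 with LPS+CPN+GGOH and 80.2 with LPS+CPN, a log2 ratio of 3.06. The other pair of Csf1 probe sets, annotated to another source sequence, showed a smaller difference in the same direction. Probe set 1425154_a_at read 251 with LPS+CPN+GGOH and 130 with LPS+CPN (log2 ratio 0.95), and 1425155_x_at read 251 with LPS+CPN+GGOH and 124 with LPS+CPN (1.02). All 4 probe sets were thus higher with GGOH, but the size of the difference depended on the probe set. The 3 probe sets outside the _x_at class spanned 2.11 log2 units. A wider span was seen in 1.85% of the 1187 genes with as many measured probe sets, whose median span was 0.68. Csf1 transcripts are known to be spliced into forms that encode secreted and membrane-bound M-CSF, and whether the probe sets separate such forms was not tested.

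Lif was read by 2 probe sets. Probe set 1421207_at gave 416 with LPS+CPN+GGOH and 150 with LPS+CPN, which is 2.78-fold higher (log2 ratio 1.48), and 342 measured genes had a higher ratio. The other, 1450160_at, was below the floor on both arrays, at 36.1 with LPS+CPN+GGOH and 25.1 with LPS+CPN, so no fold is given. LIF acts on target cells through the LIF receptor and gp130.

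Csf3 was known by a bound. Its single probe set read 172 with LPS+CPN+GGOH and 46.0, below the floor, with LPS+CPN. Against the floor this is at least 2.87-fold higher, a log2 ratio of at least 1.52. G-CSF raises neutrophil production in the bone marrow.

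The other ligands did not share this pattern. Osm, whose product signals through gp130 together with the oncostatin M receptor or, in some settings, the LIF receptor, had signals of 1737 with LPS+CPN+GGOH and 1995 with LPS+CPN (log2 ratio -0.20), a difference smaller than the SD between probe sets. Its neighbour Lif was thus past 2-fold while Osm was not. Csf2 lay below the floor on both arrays, at 10.8 with LPS+CPN+GGOH and 18.4 with LPS+CPN, and has no fold. Il3, the gene next to Csf2, was below the floor on both arrays as well (4.18 with LPS+CPN+GGOH and 2.60 with LPS+CPN).

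**Figure D2:**
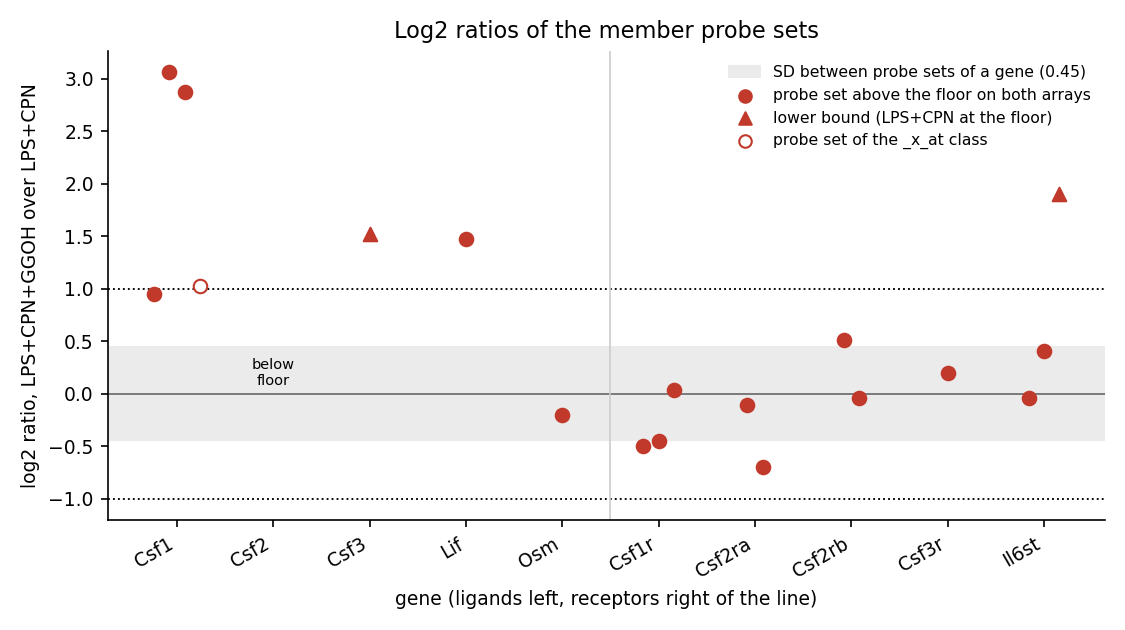
Log2 ratio of LPS+CPN+GGOH over LPS+CPN for each measured probe set, by gene, with ligands left and receptors right of the line. Circles are probe sets above the floor on both arrays (open for the _x_at class), triangles are lower bounds, the grey band is the pooled SD of 0.45, and dotted lines mark 2-fold. Csf1, Csf3 and Lif hold 5 of the 6 probe sets past 2-fold, and the sixth is 1 of 3 measured Il6st probe sets.

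The fibroblast and mesothelial markers were higher on the array with higher Csf1, Lif and Csf3. Which cells carried the ligand transcripts was not tested. The part of the 5' signal in these differences was not tested either, since the positions of the probe sets along the transcripts were not used here.

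Among the receptors, Csf1r, which carries the M-CSF signal in macrophages, had slightly lower signals with GGOH in 2 of its 3 probe sets. Probe set 1419872_at read 15170 with LPS+CPN+GGOH and 21459 with LPS+CPN (log2 ratio -0.50), and 1419873_s_at read 5056 with LPS+CPN+GGOH and 6912 with LPS+CPN (-0.45). The third, 1423593_a_at, read 3845 with LPS+CPN+GGOH and 3755 with LPS+CPN (0.03). The gene's ratio was thus just larger than the SD between probe sets, 1.41-fold lower, and 11.0% of measured genes had a lower ratio. In their brightest probe sets Csf1 was 7.35-fold higher and Csf1r 1.41-fold lower. The Csf1r log2 ratio was -0.37 after quantile normalization and -0.36 after lowess, both within the SD between probe sets.

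The chains of the GM-CSF receptor lay near equality in their brightest probe sets. Csf2ra, the ligand-binding chain, read 3144 with LPS+CPN+GGOH and 3379 with LPS+CPN (log2 ratio -0.10). Its second and much dimmer probe set read 95.7 with LPS+CPN+GGOH and 156 with LPS+CPN (-0.70). Csf2rb, the chain shared with the receptors for interleukins 3 and 5, read 19835 with LPS+CPN+GGOH and 20451 with LPS+CPN in its brightest probe set (-0.04). Its other probe set, 1421326_at, went the other way, with 7684 with LPS+CPN+GGOH and 5397 with LPS+CPN (0.51), so the sign of the gene depends on the probe set, and it turned positive after quantile normalization and after lowess. A probe set annotated to both Csf2rb and Csf2rb2 read 1245 with LPS+CPN+GGOH and 732 with LPS+CPN (0.77). The single probe set of Csf2rb2 read 11386 with LPS+CPN+GGOH and 10284 with LPS+CPN (0.15). The transcripts of these paralogues are similar, and how far their probe sets cross-hybridize was not tested.

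Csf3r, the G-CSF receptor gene, had 1 probe set with 854 with LPS+CPN+GGOH and 748 with LPS+CPN (log2 ratio 0.19), within the SD between probe sets. It was above the floor on both arrays, while neutrophil markers other than S100a8 were at or near the floor (the highest, Ngp, read 51.5 with LPS+CPN+GGOH and 75.4 with LPS+CPN).

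Il6st, the gp130 gene, gave different answers by probe set. The brightest, 1452843_at, read 1227 with LPS+CPN+GGOH and 925 with LPS+CPN (log2 ratio 0.41), and 1437303_at read 297 with LPS+CPN+GGOH and 305 with LPS+CPN (-0.04). In contrast, 1460295_s_at read 224 with LPS+CPN+GGOH and 46.9, below the floor, with LPS+CPN, which is at least 3.74-fold higher (log2 ratio of at least 1.90). The fourth, annotated to the same source sequence as the third, was below the floor on both arrays, at 38.5 with LPS+CPN+GGOH and 21.8 with LPS+CPN. The 3 measured probe sets spanned 1.94 log2 units, and 3.03% of the 1187 genes with 3 measured probe sets had a wider span. Il6st therefore counted as not past 2-fold by its brightest probe set, while 1 of its 3 measured probe sets was past it.

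**Figure D3:**
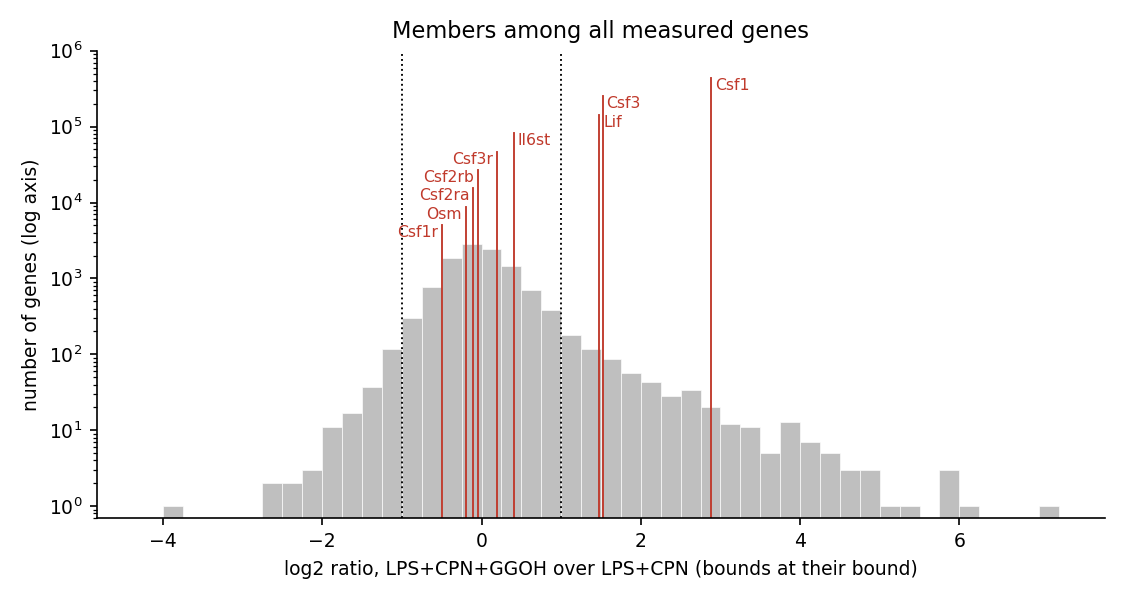
Number of genes (log axis) by log2 ratio of LPS+CPN+GGOH over LPS+CPN for the 11518 measured genes, with the 9 measured family genes as red lines and 2-fold as dotted lines. Csf1 lies at 2.88, Lif and Csf3 lie close together at 1.48 and 1.52 (a bound for Csf3), and the receptor genes and Osm lie between -0.50 and 0.41.

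Related ligands and receptors of the interleukin-6 family had 2 of 8 measured genes at least 2-fold higher and none past 2-fold the other way, with a median log2 ratio of 0.22. Il6, the founding cytokine of the family, read 2434 with LPS+CPN+GGOH and 430 with LPS+CPN, 5.67-fold higher. Osmr, which encodes a receptor chain for oncostatin M, read 499 with LPS+CPN+GGOH and 28.0, below the floor, with LPS+CPN in its brightest probe set. This is at least 8.34-fold higher. A second Osmr probe set was at least 2.96-fold higher, and the third was below the floor on both arrays (46.8 with LPS+CPN+GGOH and 55.2 with LPS+CPN). Osmr is known from fibroblasts and other stromal cells, and its share in the fibroblast signal on the LPS+CPN+GGOH array was not tested. The LIF receptor gene Lifr was just above the floor with LPS+CPN+GGOH (67.5) and below it with LPS+CPN (37.2). Il6ra, which with gp130 forms the interleukin-6 receptor, had the lowest ratio of the genes above the floor on both arrays, with 211 with LPS+CPN+GGOH and 367 with LPS+CPN (log2 ratio -0.80), though its other measured probe set had a ratio of 0.43. Il11, a cytokine of the family, read 22.2, below the floor, with LPS+CPN+GGOH and 71.5 with LPS+CPN, a log2 ratio of at most -0.25, and was -1.68 with the floor at the 25th percentile. Both Il6 and Osmr were past 2-fold under every scaling tried, but with the floor at the 75th percentile Osmr had a bound of 0.41 and Il6 alone was past it.

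Other haematopoietic growth factors and receptors were mostly below the floor, with 4 of 10 measured and none past 2-fold in either direction (median -0.09). Among these, Kitl, the stem cell factor gene, read 439 with LPS+CPN+GGOH and 384 with LPS+CPN. The interleukin-3 receptor gene Il3ra had the ratio farthest from 0 of the genes measured on both arrays, with 1025 with LPS+CPN+GGOH and 1279 with LPS+CPN (log2 ratio -0.32). Epor, the erythropoietin receptor gene, known by a bound of at most -0.48, was at least 2-fold lower with the floor at the 25th percentile (-1.16). Il34, which encodes the second ligand of CSF1R, was below the floor on both arrays, at 35.0 with LPS+CPN+GGOH and 31.8 with LPS+CPN.

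All 21 analysed genes of the JAK, STAT and adaptor relay that these receptors use were above the floor on both arrays, and none was past 2-fold. Their median log2 ratio was -0.27, with 18 of 21 below 0, beside -0.01 for all measured genes. Under the scalings tried this median stayed below 0, from -0.44 to -0.21, and with the median over probe sets it was -0.20. The value of -0.44 came with each array divided by its median, where the median of all measured genes was -0.17. The count of 18 holds for the brightest probe set of each gene. Several of the 18 had another probe set above 0, the highest at 0.76 for Ptpn11, so the sign of these genes depends on the probe set. Jak3, a kinase of the common gamma chain receptors, had the ratio farthest from 0, with 164 with LPS+CPN+GGOH and 282 with LPS+CPN (-0.78). After quantile normalization Jak3 was at least 2-fold lower (-1.02). The adaptor gene Shc1 had the highest ratio of the list, with 578 with LPS+CPN+GGOH and 446 with LPS+CPN (0.37). Jak1, a kinase bound to gp130, had a log2 ratio of 0.01, Jak2, bound to the beta chain of the GM-CSF receptor, one of -0.18, and Stat3, the main factor downstream of gp130, one of -0.21.

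Of 18 target genes of STAT3 and STAT5, 3 lay at least 2-fold above and 3 at least 2-fold below their LPS+CPN signals, with a median of -0.25. The higher ones were Socs2 (329 with LPS+CPN+GGOH and 104 with LPS+CPN, log2 ratio 1.66), Cebpd (685 with LPS+CPN+GGOH and 218 with LPS+CPN, 1.65) and Bcl6 (2477 with LPS+CPN+GGOH and 874 with LPS+CPN, 1.503). The lowest ratio among their measured probe sets was 0.36 for Socs2 and 0.87 for Bcl6. Outside the _x_at class, 3 of 6 Socs2 probe sets and 1 of 2 Cebpd probe sets were measured. The rest of these were at the floor on both arrays. Socs2 encodes a feedback inhibitor of cytokine signalling, Cebpd a transcription factor of the acute phase response and Bcl6 a transcriptional repressor. The lower ones were Socs3, the feedback inhibitor that binds gp130 (962 with LPS+CPN+GGOH and 3271 with LPS+CPN, log2 ratio -1.77), Fgl2, which encodes a fibrinogen-like protein (1004 with LPS+CPN+GGOH and 2245 with LPS+CPN, -1.16), and Cish, a feedback inhibitor induced by STAT5 (312 with LPS+CPN+GGOH and 625 with LPS+CPN, -1.003). Socs1, another feedback inhibitor gene, read 44.9, below the floor, with LPS+CPN+GGOH and 95.9 with LPS+CPN, a log2 ratio of at most -0.68, and was at least 2-fold lower with the floor at the 25th percentile (-1.10). Of the feedback inhibitor genes named here, Socs2 was thus higher past 2-fold and Socs3 and Cish lower, while Socs1 had a bound short of it. Fgl2 did not pass 2-fold as the median of its probe sets (-0.80). Il1rn, not past 2-fold by its brightest probe set (0.24), had another probe set at 1.55. Cish did not pass it with a pseudocount in place of the floor (-0.88) or with the floor at the 75th percentile (-0.73). With that floor Cebpd had a log2 ratio of 0.87 and Socs2 was not measured, which left Bcl6 as the single higher gene.

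Proteins that bind AU-rich elements control the decay of cytokine messages such as those of Csf2, Csf3 and Lif, and roquins and regnase-1 act on cytokine messages through stem-loop elements. By its brightest probe set, none of 11 genes for such message regulators was past 2-fold, and their median was -0.18. Zc3h12a, the gene for regnase-1, had a log2 ratio of -0.35 in its brightest probe set and 1.05, past 2-fold higher, in its other. Zfp36, which encodes tristetraprolin, read 6266 with LPS+CPN+GGOH and 9858 with LPS+CPN (log2 ratio -0.65). Rc3h1, which encodes roquin, had the lowest ratio (692 with LPS+CPN+GGOH and 1260 with LPS+CPN, -0.86), and Zfp36l1 the highest (1916 with LPS+CPN+GGOH and 1084 with LPS+CPN, 0.82). With each array divided by its median, Rc3h1 was at least 2-fold lower (-1.03).

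Of 7 genes for the shedding of cytokines and receptors from the cell surface, Timp3 was at least 7.65-fold higher, with 458 with LPS+CPN+GGOH and 32.2, below the floor, with LPS+CPN. With the floor at the 75th percentile its log2 ratio was bounded at 0.29, and no gene of the list was then 2-fold higher. Timp3 encodes a matrix-bound inhibitor of metalloproteinases. Over its 4 measured probe sets, log2 ratios ran from 0.39 to 3.63, with bounds at the floor. Which cells carried the Timp3 transcripts was not tested. Adam17, which encodes a sheddase known to cleave CSF1R, read 3299 with LPS+CPN+GGOH and 5464 with LPS+CPN (-0.73), while 1 of its 3 probe sets had a ratio of 0.51. Rhbdf1 had the highest ratio of the genes measured on both arrays (262 with LPS+CPN+GGOH and 135 with LPS+CPN, 0.95). Rhbdf2, whose product carries ADAM17 to the cell surface, had the lowest (871 with LPS+CPN+GGOH and 1573 with LPS+CPN, -0.85), which was -1.02 with each array divided by its median.

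**Figure D4:**
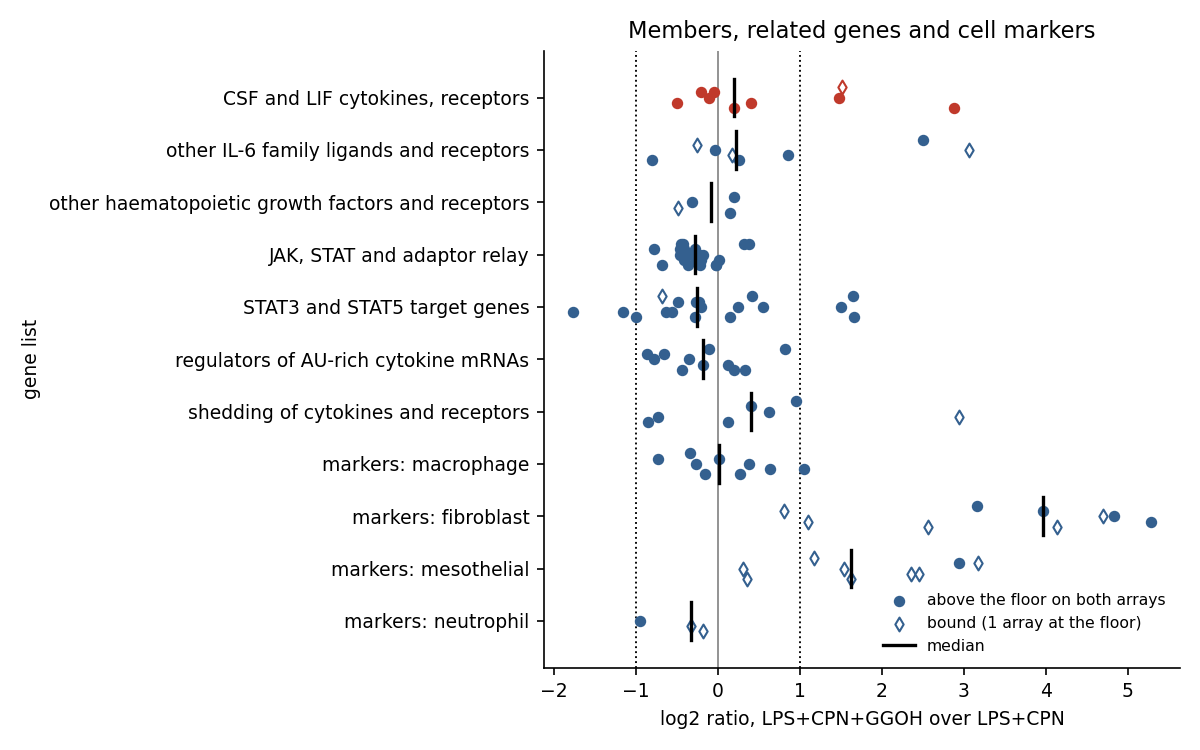
Log2 ratio of LPS+CPN+GGOH over LPS+CPN for the measured genes of the CSF and LIF family (red), of related lists and of cell markers (blue). Open diamonds are bounds, black bars are medians and dotted lines mark 2-fold. The family's median lies at 0.19 and that of the JAK, STAT and adaptor relay at -0.27, while the fibroblast markers have a median of 3.97 and the macrophage markers one of 0.02.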

How the data were processed

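The deposited intensity values, 1 signal per probe set for each of 2 arrays, were made by the authors with MAS5, per the submitters' processing notes; its version and scaling target are not named there, and detection calls were not used here. Both arrays had been brought to one level, as the central 96% of the 45101 probe sets averaged 500.0 on each. Gene symbols came from the platform annotation. Control probe sets and _x_at probe sets, which may cross-hybridize, were left out of gene values. Signals were floored at the 50th percentile of non-control signals and ratios taken as log2 of LPS+CPN+GGOH over LPS+CPN, with the probe set of the highest mean log2 signal for each gene (Python 3.11.15, pandas 2.3.3). No test was possible with 1 array per condition, and precision is limited by the number of arrays. The steps were tested on simulated data, in which the genes given a change lay well above the floor. All probe sets of such a gene were given the same change, larger than 2-fold, and the noise was smaller than the pooled SD between probe sets. How well changes are recovered near the floor, near 2-fold or where the probe sets of a gene disagree was not tested. The family and all gene lists were chosen with earlier results of these data known. In the text, all 10 genes and, of each list, genes past 2-fold and the ratio farthest from 0 in either direction were to be named. Other named genes were chosen after their values were seen. Some list genes with no single-symbol probe set were not analysed here. Alternatives covered scaling, floor, pseudocount, probe set choice and _x_at probe sets.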

Additional observations from a re-analysis of the deposited data

Results flagged for a closer look

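The Csf1 probe set of the _x_at class, whose signals entered no gene value, was past 2-fold, with a log2 ratio of 1.02 (251 with LPS+CPN+GGOH and 124 with LPS+CPN). It is a signal outside the values used for the gene, and the probe set can cross-hybridize with other transcripts.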

How the results depend on the processing

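Over 9 alternatives, the number of family genes at least 2-fold higher stayed at 3 except with the floor at the 75th percentile, under which it was 1, because the signals of Csf3 on both arrays and of Lif with LPS+CPN then fell below the floor. Csf1 ranged from 2.16 to 2.88 on the log2 scale and was past 2-fold in each alternative, and Lif ranged from 0.15 to 1.48. Over all genes, 1658 were higher and 1127 lower with the floor at the 25th percentile, and 126 were higher and 88 lower with the floor at the 75th. Lower genes numbered 332 with each array divided by its median and 307 after quantile normalization, against 191 as deposited. With _x_at probe sets kept, Socs3 had a log2 ratio of -1.30. Medians of the family and of each list moved by less than 0.45, the pooled SD of single probe sets, which is not an error of a median. The family median ran from 0.03 with each array divided by its median to 0.23 with the median over probe sets. That of the other haematopoietic growth factors and receptors changed sign, from -0.09 as reported to 0.15 with the floor at the 75th percentile. Each array divided by its median put Rhbdf2 and Rc3h1, and quantile normalization Jak3, past 2-fold lower. Csf2rb was positive in 3 alternatives, up to 0.23. LPS+CPN signals below the floor leave the values of Csf3, Osmr and Timp3 as bounds. The values of Csf1, Lif, Socs2, Cebpd and Cish lay above the floor but shrank or were lost with the floor at the 75th percentile, a signal of 376. No paired analysis was possible because each condition has 1 array and the labels give no replicate numbers.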
